A study of Mus musculus with 8 samples.

Results

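Wnt proteins reach the cell through a pair of surface receptors. The Frizzled proteins are seven-pass receptors that bind the Wnt ligand through a cysteine-rich outer domain, and Lrp5 and Lrp6 are single-pass co-receptors of the low-density lipoprotein receptor family. When a Wnt bridges a Frizzled and an LRP, Dishevelled and Axin are drawn to the membrane, the complex that destroys β-catenin stops working, and β-catenin, encoded by Ctnnb1, enters the nucleus and acts with TCF/LEF factors. In the skeleton this pathway is best known for driving bone formation, and loss of Lrp5 is a known cause of low bone mass. The receptor genes examined here were Fzd1, Fzd2, Fzd4, Fzd5, Fzd6, Fzd7, Fzd8, Fzd9, Lrp5 and Lrp6. They were chosen by name, not by level, and make up 10 of the 48490 genes in the deposited table.

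The cells were descendants of hypertrophic chondrocytes, the mature cartilage cells of the growth plate, taken from the proximal tibia of mice at postnatal day 5. Every group carried Col10a1Cre and Rosa26-Tdtomato, so a cell turned red once the Col10a1 promoter, active in hypertrophic chondrocytes, had been used in it or in an ancestor. The wild-type controls (WT, 2 libraries) carried only these alleles. The loss-of-function mutants (LoF, 4 libraries) were also Ctnnb1Δ/Δ, which removes β-catenin from the marked cells. The gain-of-function mutants (GoF, 2 libraries) were also Ctnnb1-exon3 Δ/+, which removes the part of 1 allele that holds the degradation signal and so gives a stable β-catenin. Each library was made with Smart-seq2, a full-length cDNA amplification method for very few cells, from a pool of 70 red cells picked by hand. How many animals each pool came from is not given in the labels, so the spread between libraries may hold technical as well as animal variation. Both mutations act below the receptors, so the comparisons ask how the receptor genes stand when their downstream effector is missing or always present.

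The libraries differed little in depth, with 12604 to 13962 genes above 0 and mapped totals, read back from the FPKM values, of about 1560000 to 2010000 fragments. Ctnnb1 itself, read over the whole gene and not over the deleted exons, stood at 137 and 146 FPKM (fragments per kilobase of transcript, scaled to the mapped total) in WT, 67.3 to 81.1 in LoF, and 72.0 and 86.7 in GoF. The defining hypertrophic marker Col10a1 was above 0 in all 8 libraries, from 6.24 FPKM in WT 1 to 190 in GoF 1, whereas Ihh was listed at 0 in every WT and LoF library. Summed over 8 osteoblast markers, the level was 19100 to 19300 FPKM in WT, 10100 to 13300 in LoF and 21900 to 22400 in GoF, but the list did not move as one: Col1a1 stood at 5470 and 6681 FPKM in WT and 244 to 821 in LoF, whereas Spp1, which made up most of the LoF sum, stood at 4236 and 3450 in WT, 7823 to 11845 in LoF, and 1200 and 1940 in GoF. A pair of libraries stood apart: LoF 3 held 102 FPKM over 8 endothelial markers, against at most 11.4 in any other library, and WT 2 held 10600 FPKM over 6 red cell markers, against at most 2560. Y-linked transcripts were found in both GoF libraries and in LoF 2 and 3, and Xist in both WT libraries and in LoF 1 and 4. Sex and genotype therefore cannot be told apart between GoF and WT, while the LoF group holds both sexes.

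All 8 Frizzled genes share, in the tail inside the cell, the short motif by which Dishevelled docks, and it is shown here because it is a stretch that they have in common on the signalling side. The bases below were read from the coding transcripts of GENCODE M21 (GRCm38), 5′ to 3′, with the codons of the lysine, threonine and tryptophan that define the motif in capitals. Each gene held the motif once. That of Fzd8 is not shown.
Fzd1: AAGACActgaattccTGG
Fzd2: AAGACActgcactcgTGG
Fzd7: AAGACCctgcagtcaTGG
Fzd4: AAAACTcttcacacgTGG
Fzd5: AAGACTctggagtctTGG
Fzd9: AAGACTtttcagactTGG
Fzd6: AAGACGtgcacagaaTGG
Fzd1, Fzd2 and Fzd7 are the closest relatives in the family, and in each the motif is followed by 17 more residues. It is followed by 33 residues in Fzd4, 54 in Fzd9, 55 in Fzd5 and 206 in Fzd6, the Frizzled with the longest tail among them. Each of these genes therefore encodes the residues that define the motif, and the libraries differ in which of the genes has the most transcript. Receptor protein and docking were not measured.

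The receptors were low to moderate in abundance. Averaged over the 8 libraries, Fzd1 at 3.79 FPKM and Lrp6 at 3.74 FPKM lay at the 44.2 and 43.9 percentile of the 12888 genes tested, whose median was 4.69 FPKM. Fzd7 followed at percentile 21.9, Fzd5 at 9.7, Lrp5 at 9.3 and Fzd9 at 4.7. The other members averaged 0.539 FPKM for Fzd2, 0.369 for Fzd4, 0.170 for Fzd6 and 0.154 for Fzd8. Of the 10 members, 6 reached 1 FPKM in 2 or more libraries and were tested: Fzd1, Fzd5, Fzd7, Fzd9, Lrp5 and Lrp6. The low FPKM values of a gene are whole multiples of the value of 1 fragment, so for the 8 Frizzled genes the fragments could be read back. All 48 of their values above 0 came within 0.15 of a whole number, but the step of each gene was set from these same values. The closeness is therefore no separate check. Transcript length and the calibration on other genes alone gave 80.28 fragments for Fzd1 in LoF 2, read as 81. They gave 4.22 for Fzd6 in LoF 1, read as 4. These fragments came from amplified cDNA without molecular identifiers, so the intervals given below cover counting error only.

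**Figure D1:**
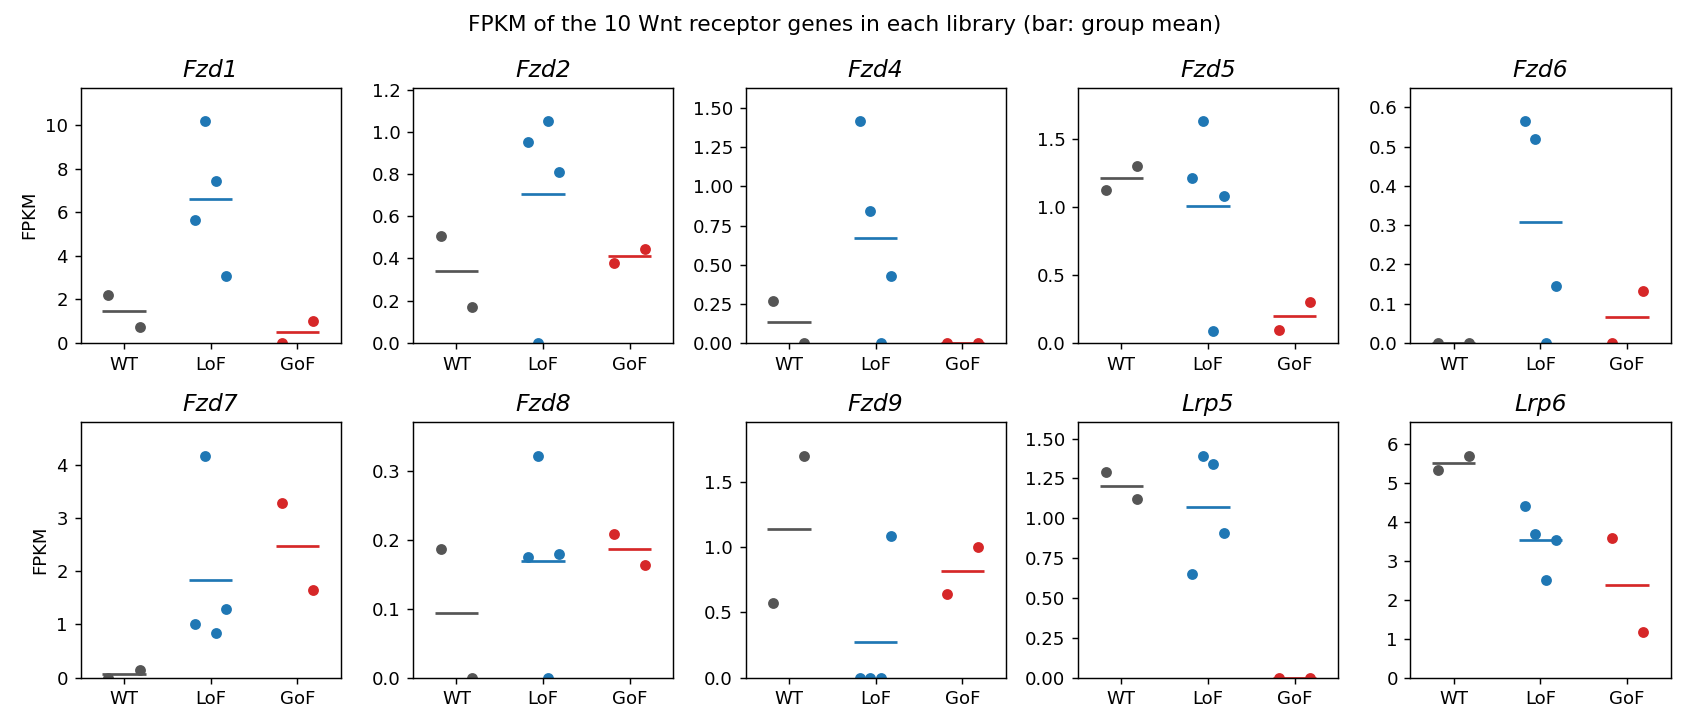
FPKM of each of the 10 receptor genes (vertical axis, a separate linear scale per gene) in the 2 WT, 4 LoF and 2 GoF libraries, 1 point per library, with a bar at the group mean. Fzd1 is highest in the 4 LoF libraries, Fzd7 is near 0 in WT alone, Lrp5 is at 0 in both GoF libraries, and Lrp6 is highest in WT.

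The Frizzled with the largest share of transcript differed between LoF and GoF. Fzd1 supplied the largest share of the summed FPKM of the 8 Frizzled genes in all 4 LoF libraries, with 51.3%, 57.6%, 79.0% and 38.1% in LoF 1 to 4. Fzd7 was the largest in both GoF libraries, with 71.4% in GoF 1 and 35.0% in GoF 2. The WT libraries had no common leader: Fzd1 held 45.3% in WT 1 and Fzd9 held 42.2% in WT 2. Some leads rested on few fragments. Fzd9 in WT 2 had 6 (95% counting interval 2.2 to 13.06), while the longer Fzd5 had 15 there. In GoF 2, Fzd7 had 14 (7.65 to 23.49) and Fzd1 had 8 (3.45 to 15.76), with overlapping intervals. When the other Frizzled genes, Fzd3 and Fzd10, were added, Fzd3 took the largest share in both WT libraries (32.8% and 30.5%), and the leaders in LoF and GoF stayed Fzd1 and Fzd7. The summed Frizzled level was 4.85 and 4.04 FPKM in WT, 11.0, 17.7, 9.41 and 8.10 in LoF, and 4.60 and 4.72 in GoF, so every LoF library lay above the 4 others. These are descriptions of levels and carry no test. In such pools, a change in the cells that use a receptor and a change in RNA per cell cannot be told apart.

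**Figure D2:**
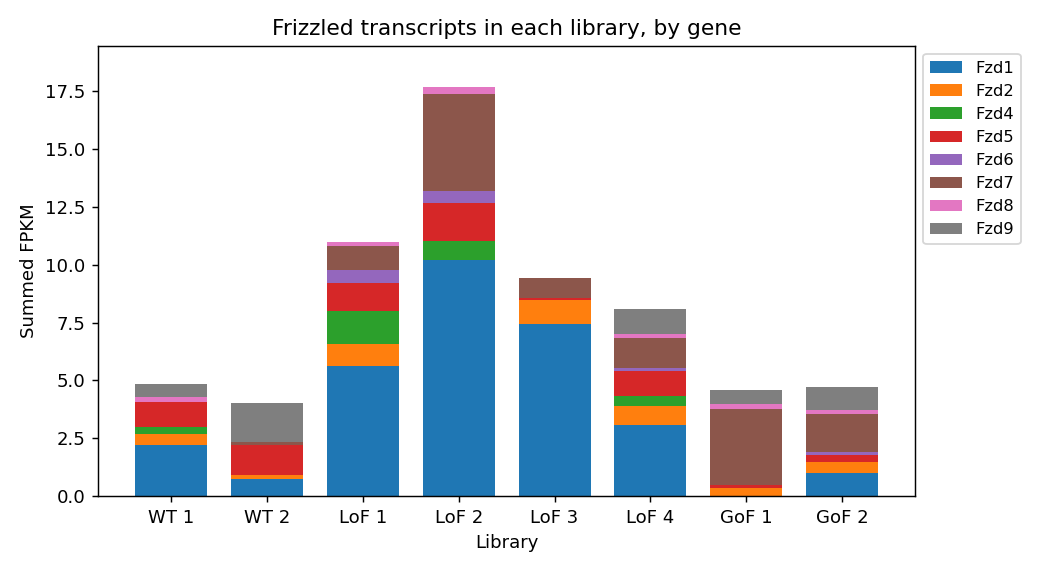
Summed FPKM of the 8 Frizzled genes (vertical axis) in each of the 8 libraries, stacked by gene. LoF libraries reach 8.10 to 17.7 with Fzd1 as the largest block, and GoF libraries reach 4.60 and 4.72 with Fzd7 as the largest block.

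Fzd1 was the only member that passed the test, and it did so in 1 comparison. Fzd1 (ENSMUSG00000044674.6, mm10, chr5:4753839-4758035, minus strand, a single exon) is a β-catenin-coupled Frizzled. Its level was 2.19 and 0.732 FPKM in WT, 5.62, 10.2, 7.43 and 3.09 FPKM in LoF 1 to 4, and 0 and 1.02 FPKM in GoF. All 4 LoF libraries lay above all 4 libraries of the other groups, and WT and GoF overlapped. In fragments, these values were 15 and 5 in WT, 41, 81, 49 and 22 in LoF, and 0 and 8 in GoF. The exact 95% Poisson interval of the lowest LoF library, 13.79 to 33.31 fragments, lay above the point estimate of GoF 2 but overlapped its interval of 3.45 to 15.76. The 0 in GoF 1 was given an upper limit of 3 fragments, a 1-sided 95% Poisson limit, whereas the other intervals are 2-sided.

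The mean of Fzd1 was 6.58 FPKM ± 2.99 (SD, n = 4) in LoF, and the ratio of the group means was 12.9 for LoF over GoF and 4.50 for LoF over WT. Single libraries moved these ratios: the first was 6.43 without GoF 1 and has no value without GoF 2, and the second was 8.99 without WT 1 and 3.00 without WT 2. On the log2(FPKM + 1) scale, which understates the change of low genes, Fzd1 was lower in GoF than in LoF by a log2 fold change of -2.32 (SE 0.57, 95% interval -3.58 to -1.06, limma with Benjamini-Hochberg adjustment over all genes, adjusted p = 0.0265). The median of all genes in that comparison was -0.17. Between LoF and WT the fitted log2 fold change was 1.60 (SE 0.57, 95% interval 0.33 to 2.86, limma adjusted p = 0.246), and between GoF and WT -0.73 (SE 0.66, limma adjusted p = 0.702), neither past the threshold of 0.05. The GoF against LoF call was lost without LoF 2 (limma adjusted p = 0.0571), without GoF 1 (adjusted p = 0.282), without GoF 2 (adjusted p = 0.0655) and with no filter on low genes (adjusted p = 0.0598). It held without LoF 3 (adjusted p = 0.0443) and without WT 2 (adjusted p = 0.0364). No sex held all 3 groups. The Y-bearing libraries were at 10.2 and 7.43 FPKM in LoF and 0 and 1.02 in GoF, and the Xist-bearing ones at 5.62 and 3.09 in LoF and 2.19 and 0.732 in WT.

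The sums of marrow stromal and adipocyte markers were, like Fzd1, highest in LoF. So were the pericyte and hypertrophic sums, at 36.0 to 69.9 and 3320 to 4990 FPKM in LoF, against at most 35.1 and 2410 in the other groups. Summed over 8 marrow stromal markers, the level was 596 to 1860 FPKM in LoF, 110 to 364 in WT and 48.7 to 76.8 in GoF, and LoF 2 was highest in both this sum and Fzd1. Most of the LoF sum was Cxcl12, at 482 to 1572 FPKM, while Lepr on the same list was at 2.15 to 32.6 in LoF, 51.3 and 27.0 in WT, and 38.1 and 56.9 in GoF. Over 7 adipocyte markers the level was 525 to 829 FPKM in LoF, 19.5 to 117 in WT and 0.809 to 4.44 in GoF, where Adipoq, Cebpa, Plin1 and Cd36 were listed at 0. Most of the LoF adipocyte sum was Lpl, at 386 to 595 FPKM. Adipoq, at 0.567 to 62.1 FPKM in LoF and 12.0 and 0 in WT, overlapped between these groups. Within LoF the order was not that of Fzd1. LoF 3, at 7.43 FPKM of Fzd1, had the lowest LoF value in the stromal and adipocyte sums, 596 and 525 FPKM. LoF 4, the lowest LoF library in Fzd1 at 3.09 FPKM, held 950 and 680. The part of stromal, adipocyte, pericyte or hypertrophic cells in the Fzd1 difference was not tested. The 3 tested genes whose log2(FPKM + 1) followed Fzd1 most closely over the 8 libraries were Xpa (Pearson r = 0.985), a DNA repair factor, Amot (r = 0.974), an adaptor that binds YAP, and Svep1 (r = 0.968), a large extracellular matrix protein. These correlations describe 8 libraries in 3 groups and were picked as the highest of all tested genes.

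Fzd7 showed another pattern, near absent in WT and present in both mutants. Fzd7 (ENSMUSG00000041075.8, mm10, chr1:59482424-59486955, plus strand), a close relative of Fzd1 known from stem and progenitor cells, was at 0 and 0.135 FPKM in WT, 1.01, 4.17, 0.839 and 1.29 FPKM in LoF, and 3.29 and 1.65 FPKM in GoF. That was a single fragment over both WT libraries, 8, 36, 6 and 10 fragments in LoF and 22 and 14 in GoF. No mutant library overlapped with WT. The fitted log2 fold change was 1.66 for GoF against WT (SE 0.61, 95% interval 0.30 to 3.02, limma unadjusted p = 0.0214, adjusted p = 0.235) and 1.27 for LoF against WT (SE 0.53, 95% interval 0.10 to 2.45, limma unadjusted p = 0.0368, adjusted p = 0.332). Neither passed the threshold after adjustment, and both rest on the same WT libraries. Fzd7 reached 1 FPKM only in mutant libraries, so it entered the test through the groups in which it was high. GoF and LoF differed by 0.39 (95% interval -0.79 to 1.57, limma adjusted p = 0.695), an interval that holds differences in either direction. LoF 2 was the highest of the 4 LoF libraries for Fzd7 as for Fzd1.

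**Figure D3:**
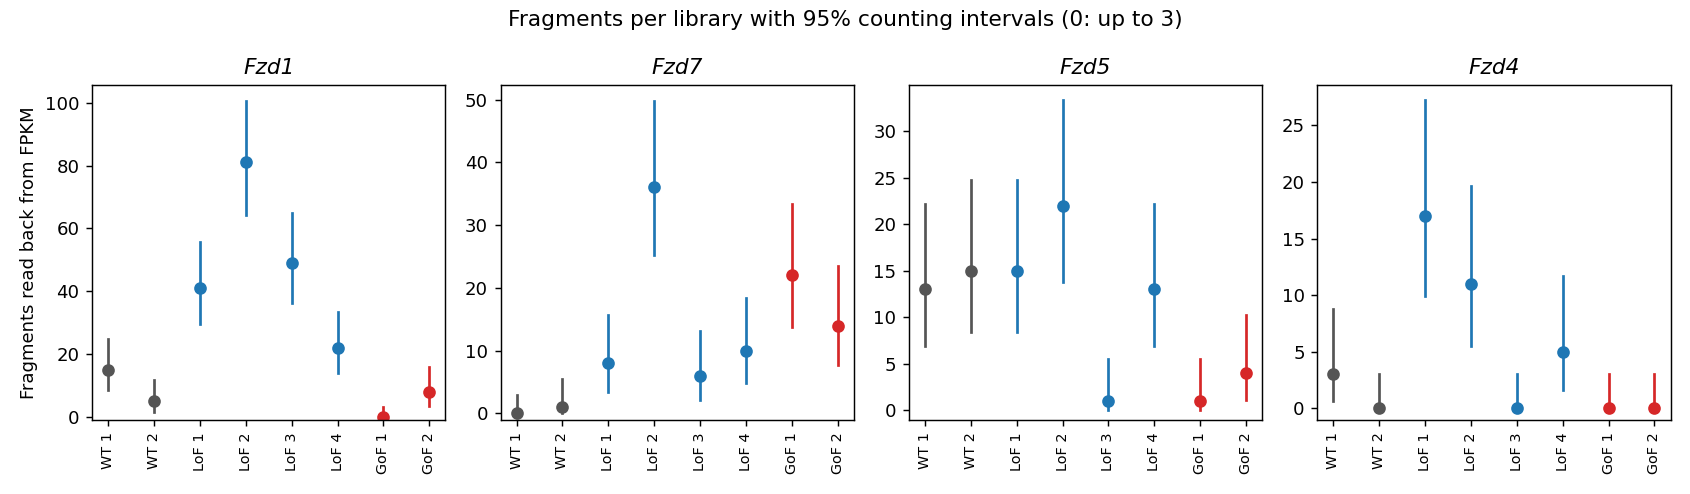
Fragments read back from FPKM (vertical axis, linear, a separate scale per gene) for Fzd1, Fzd7, Fzd5 and Fzd4 in each library, with exact 95% Poisson intervals; at 0 the bar runs to 3 fragments. Fzd1 reaches 81 fragments in LoF 2, Fzd7 reaches 36 there and 22 in GoF 1, Fzd5 has 1 and 4 in GoF, and Fzd4 has none in GoF.

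The upstream sequences of these 2 Frizzled genes are shown because the groups differ in β-catenin, which acts on DNA through TCF/LEF factors. The 250 bases before the RefSeq transcription start were taken from GRCm38.p6, 5′ to 3′ on the strand of the gene, and searched on both strands for 4 forms of the TCF/LEF core. These begin with ATCAAAG, the second form is TTCAAAG, the third form is AACAAAG and the last form is TACAAAG, with any match in capitals. The first window is chr5:4758217-4758466 on the minus strand and the second chr1:59481897-59482146 on the plus strand.
Fzd1: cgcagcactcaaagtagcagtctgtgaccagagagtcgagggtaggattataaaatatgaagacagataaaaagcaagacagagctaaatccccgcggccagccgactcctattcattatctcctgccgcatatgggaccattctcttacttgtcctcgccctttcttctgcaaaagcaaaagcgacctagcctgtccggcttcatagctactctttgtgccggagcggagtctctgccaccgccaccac
Fzd7: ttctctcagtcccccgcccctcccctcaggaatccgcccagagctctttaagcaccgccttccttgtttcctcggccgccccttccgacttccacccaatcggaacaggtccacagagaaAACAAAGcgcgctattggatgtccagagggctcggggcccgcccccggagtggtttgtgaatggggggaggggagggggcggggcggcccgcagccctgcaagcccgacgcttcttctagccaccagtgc
The Fzd7 window held 1 match, AACAAAG, 130 bases before the start, and that of Fzd1 held 0. The windows of Fzd4, Fzd5 and Fzd9 held 0, and those of the other members were not analysed here. Of 32851 windows of this length, 14.8% held at least 1 of the 4 forms and 5.03% held AACAAAG. A match of letters is no evidence of a factor at the site, and the absence of one says only that these letters are not in this window. The GC content was 51.2% for Fzd1 and 65.2% for Fzd7, against a median of 52.4%.

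Fzd5 and Fzd9 were tested and did not pass in any comparison. Fzd5 (ENSMUSG00000045005.9, chr1:64730558-64737751, minus strand), a Wnt receptor known from gut and eye, was at 1.12 and 1.30 FPKM in WT, 1.22, 1.63, 0.0900 and 1.08 in LoF, and 0.0954 and 0.302 in GoF, or 13 and 15, then 15, 22, 1 and 13, then 1 and 4 fragments. Both GoF libraries lay below both WT libraries, and LoF 3 lay with GoF while the other 3 LoF libraries lay with WT. The fitted log2 fold change for GoF against WT was -0.89 (SE 0.53, limma adjusted p = 0.516). Among the Y-bearing libraries, LoF at 1.63 and 0.0900 FPKM overlapped with GoF. The predicted gene Gm38058 overlaps Fzd5 on the other strand, and in libraries of this kind, which keep no strand, reads of the pair cannot be told apart. Fzd9 (ENSMUSG00000049551.2, chr5:135248938-135251230, minus strand), a Frizzled known for a role in osteoblasts, was at 0.570 and 1.70 FPKM in WT, 0, 0, 0 and 1.08 in LoF, and 0.637 and 1.00 in GoF. It rested on no more than 6 fragments in any library. The fit gave -0.78 for LoF against WT (limma adjusted p = 0.529), which at this depth does not separate the groups.

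Fzd2, Fzd4, Fzd6 and Fzd8 stayed below the filter. Fzd4 (chr7:89404355-89413134, plus strand), the receptor of Norrin in blood vessels, was at 0.267 and 0 FPKM in WT, 1.42, 0.841, 0 and 0.428 in LoF, and 0 and 0 in GoF, or 3 fragments over both WT libraries, 33 over the 4 LoF libraries and 0 over both GoF libraries. LoF 3, the library with the high endothelial sum, had none, with the same upper limit of 3 fragments for a 0. The endothelial sums of LoF 1, 2 and 4 were 11.4, 8.25 and 0.564 FPKM, in the same order as their Fzd4. The part of endothelial cells in the Fzd4 values was not tested. Fzd2 (chr11:102604396-102608058, plus strand), a relative of Fzd1 and Fzd7, gave 4 fragments over WT, 17 over LoF and 5 over GoF. Fzd6 (chr15:39006280-39038186, plus strand), known from planar cell polarity, gave 0, 9 and 1, and Fzd8 (chr18:9212856-9216201, plus strand) gave 1, 4 and 2. Groups overlapped for each of these genes in each comparison. In a fit with no filter, the lowest limma adjusted p among these members was 0.356, for Fzd4 in GoF against LoF.

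Both co-receptors had their lowest group mean in GoF. Lrp6 (ENSMUSG00000030201.15, chr6:134446476-134566965, minus strand), the main co-receptor in most tissues, was at 5.34 and 5.70 FPKM in WT, 4.41, 3.68, 2.51 and 3.53 in LoF, and 3.59 and 1.17 in GoF. Both WT libraries lay above all 6 mutant libraries, and GoF and LoF overlapped. The fitted log2 fold change was -1.04 for GoF against WT (SE 0.54, 95% interval -2.25 to 0.16, limma adjusted p = 0.430) and -0.54 for LoF against WT (SE 0.47, limma adjusted p = 0.679), so neither passed. Lrp5 (ENSMUSG00000024913.16, chr19:3584828-3686564, minus strand) was at 1.29 and 1.12 FPKM in WT, 0.649, 1.39, 1.34 and 0.909 in LoF, and listed at 0 in both GoF libraries. A count of 3 fragments, the upper limit used here for a 0, would be about 0.394 FPKM in GoF 1 and 0.311 in GoF 2. These floors lay below every WT and LoF value. The lowest of those values, in LoF 1, rested on about 6 fragments, with a 95% counting interval of 2.2 to 13.06 that holds 3. The floors and fragments are approximate because Lrp5 has several transcripts.

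The fitted log2 fold change of Lrp5 was -1.14 for GoF against WT (SE 0.45, limma unadjusted p = 0.0299, adjusted p = 0.274) and -1.04 for GoF against LoF (SE 0.39, limma unadjusted p = 0.0241, adjusted p = 0.128), with no overlap in either. A fold from a group at 0 depends on the pseudocount: with 0.1 in place of 1, the GoF against LoF value was -3.50 and the limma adjusted p = 0.0313. The Y-bearing LoF libraries, at 1.39 and 1.34 FPKM, also lay above GoF. Lrp6 made up 80.5% and 83.6% of the FPKM of both co-receptors in WT, 65.2% to 87.2% in LoF and 100% in GoF. Set against the summed Frizzleds, the co-receptors stood at a ratio of 1.37 and 1.69 in WT, 0.462, 0.287, 0.409 and 0.547 in LoF, and 0.780 and 0.248 in GoF. Over these 8 Frizzleds, every mutant library thus had a lower co-receptor than Frizzled level, and both WT libraries a higher one. With Fzd3 and Fzd10 added, the co-receptors stood at 6.63 FPKM against 7.21 in WT 1, and at 6.81 against 5.81 in WT 2. WT 1 then lay on the side of the mutants.

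**Figure D4:**
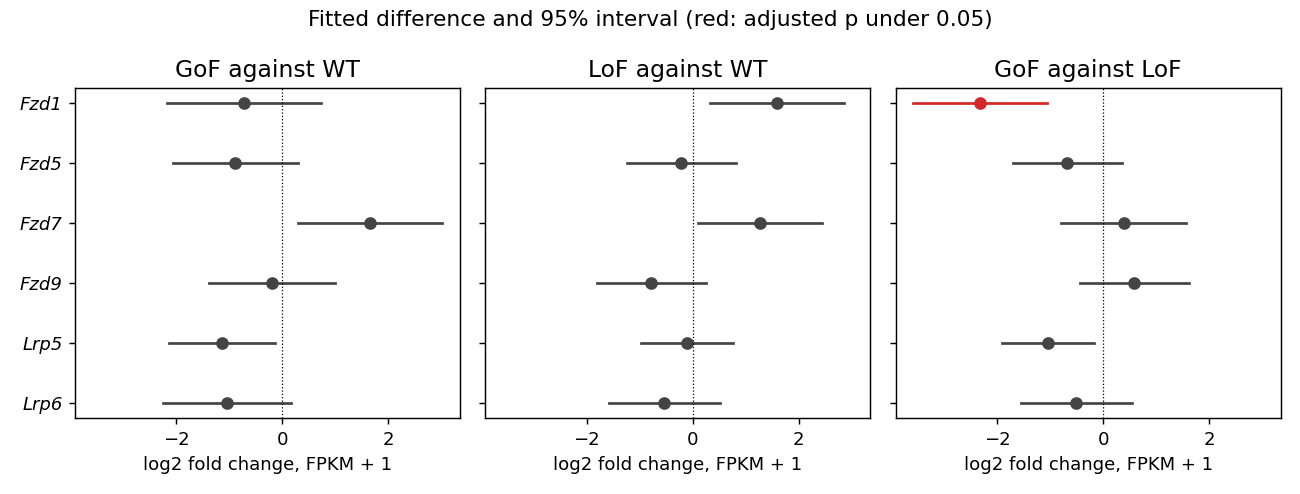
Fitted log2 fold change of FPKM + 1 (horizontal axis) with its 95% interval for the 6 tested receptor genes in each comparison; red marks an adjusted p under 0.05. Fzd1 in GoF against LoF, at -2.32, is the single red point, and 5 uncalled intervals also leave out 0 before adjustment: Fzd7 in both comparisons with WT, Lrp5 in both comparisons of GoF, and Fzd1 in LoF against WT.

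Counted together, 0 of the 6 tested members passed in GoF against WT, where limma called 2.31% of all genes, and 0 passed in LoF against WT, where it called 1.23%. In GoF against LoF, 1 of 6 passed (Fzd1, lower), with 11.6% of all genes called. In each of the 3 comparisons 2 members had an unadjusted limma p under 0.05, beside 14.3%, 13.4% and 25.2% of all genes in GoF against WT, LoF against WT and GoF against LoF. Libraries of the groups did not overlap for 4 of 6 members in GoF against WT (Fzd7 higher; Fzd5, Lrp5 and Lrp6 lower), beside 48.0% of all genes. They did not overlap for 3 of 6 in LoF against WT (Fzd1 and Fzd7 higher, Lrp6 lower), beside 21.4%, and for 2 of 6 in GoF against LoF (Fzd1 and Lrp5 lower), beside 33.5%. The members' median log2 fold change was -0.81, -0.16 and -0.59 in the order given, and that of all genes -0.08, 0.06 and -0.17. With 6 members, nothing particular to the receptors is read from these counts. Members passed the filter through any of the groups, Fzd7 through the mutants alone and Fzd5 and Lrp5 through WT and LoF alone. The tested ones are therefore not a neutral sample of the receptors.

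Genes that act around the receptors were read from the same fit. Of 85 other genes of the pathway, sorted into 8 lists by their place relative to the receptor, 52 were tested. Between GoF and LoF, 10 were higher, 7 were lower and 35 did not pass, beside 11.6% of all genes called. In LoF against WT 1 was higher and 1 lower, beside 1.23% of all genes, and in GoF against WT 3 were higher and 2 lower, beside 2.31%. The lists were chosen with earlier results of these data known, so these counts do not measure how widely the pathway changed. Of the 17 genes called between GoF and LoF, 8 passed in every fit that left out a library and tested them, and 9 lost the call in at least 1. Axin2, among the 8, and Celsr1 reached 1 FPKM only in the GoF libraries. They thus entered the test through the group in which they were high, and could not be tested without GoF 1 or GoF 2. Dkk1 and Wnt5a reached 1 FPKM in GoF and WT but in no LoF library, so against LoF they too entered through the groups in which they were high. Wnt11 reached it in GoF and LoF but in no WT library. With sex as a covariate, Celsr1, Tspan12, Wnt5a and Znrf3 lost the call (limma adjusted p 0.0580 to 0.134), with only GoF and LoF fitted Smo, Tspan12 and Znrf3 (0.0577 to 0.0708), with a pseudocount of 0.1 Notum and Znrf3 (0.0814 and 0.0681), with no filter Tspan12 and Znrf3 (0.0555 and 0.0605), and with quantile normalization Smo (0.0562). All 7 calls against WT, those of Rspo3, Dkk1, Wif1, Axin2, Dab2, Wnt11 and Sdc1, were lost with sex as a covariate (limma adjusted p 0.117 to 0.339) and with only the groups compared fitted (0.0803 to 0.156). These losses are not particular to the 7. Over all genes, the sex fit called 11 in GoF against WT and 14 in LoF against WT, and the group-only fits called 0 in each. The sex term was set by the LoF libraries alone, the only group with both sexes. Of these 7, a pseudocount of 0.1 also ended the calls of Axin2, Dkk1, Rspo3, Wif1 and Wnt11 (0.0510 to 0.194), a fit with no filter those of Dkk1, Rspo3, Wif1 and Wnt11 (0.0628 to 0.104), and a fit with no mean-variance trend those of Dab2, Rspo3 and Wif1 (0.0505 to 0.0882). Whether the receptors and these genes differ in how often they change was not tested.

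Receptor turnover is set by the R-spondins, secreted proteins that bind Lgr4, Lgr5 or Lgr6 and withdraw Znrf3 and Rnf43, the ubiquitin ligases that clear Frizzled and LRP from the surface. Of 9 genes 5 were tested, and between GoF and LoF 2 were higher and 2 lower, with a list median of 1.12. Rspo3 was at 11.7 and 5.95 FPKM in WT, 34.0, 78.2, 28.9 and 51.4 in LoF, and 1.82 and 1.90 in GoF. The groups did not overlap, and Rspo3 was lower in GoF than in LoF by -4.00 (SE 0.45, limma adjusted p = 0.000511) and higher in LoF than in WT by 2.28 (SE 0.45, limma adjusted p = 0.0469). The second call was lost in 7 of the 8 fits that left out a library, with a limma adjusted p of up to 0.365 without WT 2. Lgr4 followed the same order, from 17.4 to 32.5 FPKM in LoF, 10.1 and 8.86 in WT, and 5.26 and 5.75 in GoF, and was lower in GoF than in LoF by -1.93 (limma adjusted p = 0.00653). Lgr6 went the other way, with 0.231 to 1.08 FPKM in LoF and 11.4 and 6.58 in GoF (log2 fold change 2.56, limma adjusted p = 0.00661), as did Znrf3, with 1.16 to 2.92 FPKM in LoF and 8.62 and 8.59 in GoF (1.59, limma adjusted p = 0.0471). Lgr4, Lgr6 and Znrf3 lost the call without GoF 1 (limma adjusted p = 0.0789, 0.118 and 0.300), and Lgr4 also without GoF 2 (adjusted p = 0.0548). Znrf3 passed in 1 of the 8 fits that left out a library. Rspo2 and Lgr5 averaged 0.799 and 0.0865 FPKM, and the first did not pass and the second was not tested. Rnf43, also below the filter, was at 1.97 and 0.502 FPKM in GoF and 0 in the other 6 libraries (limma adjusted p = 0.0511 against LoF with no filter), and Rspo1 and Rspo4 were listed at 0 throughout.

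Of the 9 genes listed for the LRP chaperone, extracellular LRP inhibitors and relatives of these, 4 were tested, with a list median of 0.22 between GoF and LoF. Dkk1, a secreted inhibitor that binds Lrp5 and Lrp6, was at 4.28 and 13.6 FPKM in WT, 0.500, 0, 0 and 0 in LoF, and 30.1 and 19.9 in GoF. It was higher in GoF than in LoF (limma adjusted p = 0.000589) and lower in LoF than in WT by -2.99 (SE 0.53, limma adjusted p = 0.0295), a call that was lost in 4 of the 8 fits that left out a library: without WT 1 (adjusted p = 0.0579), WT 2 (0.314), LoF 2 (0.0677) or LoF 4 (0.0540). Its relative Dkk3 moved the opposite way, with 8.37 to 21.6 FPKM in LoF and 1.03 and 0.163 in GoF (log2 fold change -3.41, SE 0.50, limma adjusted p = 0.00231). Mesdc2, the chaperone of the LRPs, averaged 16.2 FPKM and Kremen1, a Dkk1 co-receptor, 2.89, and neither passed. Sostdc1 averaged 0.341 FPKM and was below the filter. Sost, the sclerostin gene of osteocytes, was listed at 0 in every library.

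Soluble inhibitors that bind or disable Wnts were higher in GoF than in LoF for 3 of the 5 tested of 8, with a list median of 3.02. Frzb, a secreted Frizzled-like decoy, was at 12.0 and 6.22 FPKM in WT, 0.187, 2.58, 0 and 4.65 in LoF, and 101 and 115 in GoF (GoF against LoF 5.62, SE 0.69, limma adjusted p = 0.000806). Wif1, which binds Wnts directly, was at 101 and 52.4 FPKM in WT, 24.8, 18.4, 40.1 and 50.7 in LoF, and 379 and 347 in GoF (3.50, SE 0.42, limma adjusted p = 0.000707). No group overlapped with another for either gene. Wif1 was also higher in GoF than in WT by 2.30 (limma adjusted p = 0.0385), but not without WT 1 (adjusted p = 0.101), WT 2 (0.240), GoF 1 (0.229) or GoF 2 (0.151). Notum, an enzyme that strips the lipid from Wnts, was at 0 to 3.28 FPKM in LoF and 10.8 and 29.7 in GoF (3.02, limma adjusted p = 0.0176), and lost the call without GoF 2 (adjusted p = 0.177). Sfrp4 and Sfrp1, averaging 20.6 and 1.39 FPKM, did not pass. Apcdd1, a membrane inhibitor of Wnt signalling, was below the filter, at 0.802 and 0.998 FPKM in GoF, 0.357 and 0.227 in WT, and 0.217 in LoF 4 and 0 in the other LoF libraries, and in the fit with no filter its limma adjusted p was 0.0309 for GoF against LoF.

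Among 21 genes of the relay just below the receptor, 19 were tested and 2 passed between GoF and LoF, with a list median of -0.18. Axin2, a scaffold of the destruction complex and a standard β-catenin target, was at 5.26 and 2.80 FPKM in GoF, 0 and 0.323 in WT, and 0 in each LoF library (limma adjusted p = 0.00484 against LoF and 0.0429 against WT). The call against WT was lost in every fit that left out a WT or LoF library, with a limma adjusted p of up to 0.271 without WT 1. Dab2, an endocytic adaptor linked to the uptake of Lrp6, was at 17.5 and 10.8 FPKM in WT, 24.4 to 43.7 in LoF, and 2.33 and 2.53 in GoF. It was lower in GoF than in LoF by -3.30 (SE 0.36, limma adjusted p = 0.000417) and than in WT by -2.11 (limma adjusted p = 0.0300), the latter lost without WT 1 (adjusted p = 0.234), WT 2 (0.0864), GoF 1 (0.216) or GoF 2 (0.141). The most abundant members that did not pass were Ctnnb1, Csnk1a1, a kinase that primes β-catenin for destruction, at 56.7 FPKM on average, and Gpc4, a glypican, at 19.8. The Dishevelled genes Dvl1, Dvl2 and Dvl3, which dock on the motif printed above, averaged 1.68, 1.56 and 1.80 FPKM and did not pass either.

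The ligands were sparse: of 19 Wnt genes, 6 were tested and 9 had no signal in any library, with a list median of 0.78 between GoF and LoF. Wnt11, a ligand known for β-catenin-independent signalling, was at 0.517 and 0.376 FPKM in WT, 0.479, 2.01, 0 and 0 in LoF, and 16.5 and 10.9 in GoF (3.31, SE 0.55, limma adjusted p = 0.00425 against LoF, and 3.32, adjusted p = 0.0262 against WT). The first call was lost without GoF 1 (adjusted p = 0.0600), and the second without WT 1 (adjusted p = 0.173), WT 2 (0.141), GoF 1 (0.222) or GoF 2 (0.101). Wnt5a, of the same kind, was at 5.09 and 3.23 FPKM in WT, 0.704 to 0.876 in LoF, and 4.53 and 7.70 in GoF (1.93, limma adjusted p = 0.0206 against LoF), and lost the call without GoF 1 (adjusted p = 0.0966) or GoF 2 (0.222). Wnt5b, Wnt4 and Wnt7b averaged 4.97, 4.68 and 0.644 FPKM and did not pass.

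Of 13 other co-receptors and polarity genes 9 were tested, with a list median of -1.13 between GoF and LoF. Sdc1, a heparan sulfate proteoglycan of the cell surface, was at 50.6 and 42.3 FPKM in WT, 46.3 to 80.4 in LoF, and 2.00 and 5.65 in GoF. It was lower in GoF than in LoF by -3.75 (SE 0.39, limma adjusted p = 0.000302) and than in WT by -3.41 (SE 0.45, limma adjusted p = 0.00437), the latter lost without WT 1 (adjusted p = 0.0611), with sex as a covariate (0.117) and with only GoF and WT fitted (0.109). Celsr1, a cadherin of planar polarity, was at 1.64 and 1.39 FPKM in GoF and at 0 in each LoF library (limma adjusted p = 0.0297), passing in 1 of the 6 fits that left out a library and tested it. Ryk, Gpc3 and Vangl1, averaging 14.2, 9.39 and 5.78 FPKM, did not pass. Tspan12, a tetraspanin that helps Fzd4 signal, was lower in GoF, at 2.05 and 5.50 FPKM, than in LoF, at 9.88 to 18.2 (-1.61, limma adjusted p = 0.0377), and passed in 1 of the 8 fits that left out a library. Ndp, which encodes Norrin, was at 0.657 FPKM in LoF 4 and listed at 0 elsewhere.

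The paralogues of the receptors close the list, with 3 of 4 tested and a median of -1.15 between GoF and LoF. Smo, the Hedgehog transducer that shares the Frizzled fold, was at 8.03 and 8.85 FPKM in WT, 10.3 to 15.9 in LoF, and 3.82 and 4.87 in GoF. It was lower in GoF than in LoF by -1.38 (SE 0.36, limma adjusted p = 0.0369), and passed in 2 of the 8 fits that left out a library. Fzd3, an axon guidance and polarity Frizzled, was at 2.36 and 1.78 FPKM in WT, 1.14 to 4.29 in LoF, and 0 and 1.03 in GoF, and did not pass (GoF against LoF -1.15, limma adjusted p = 0.208). Lrp4, a relative of Lrp5 and Lrp6 that binds sclerostin, averaged 5.64 FPKM, with -0.15 between GoF and LoF (95% interval -1.04 to 0.75). Fzd10 averaged 0.0706 FPKM and was not tested.

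**Figure D5:**
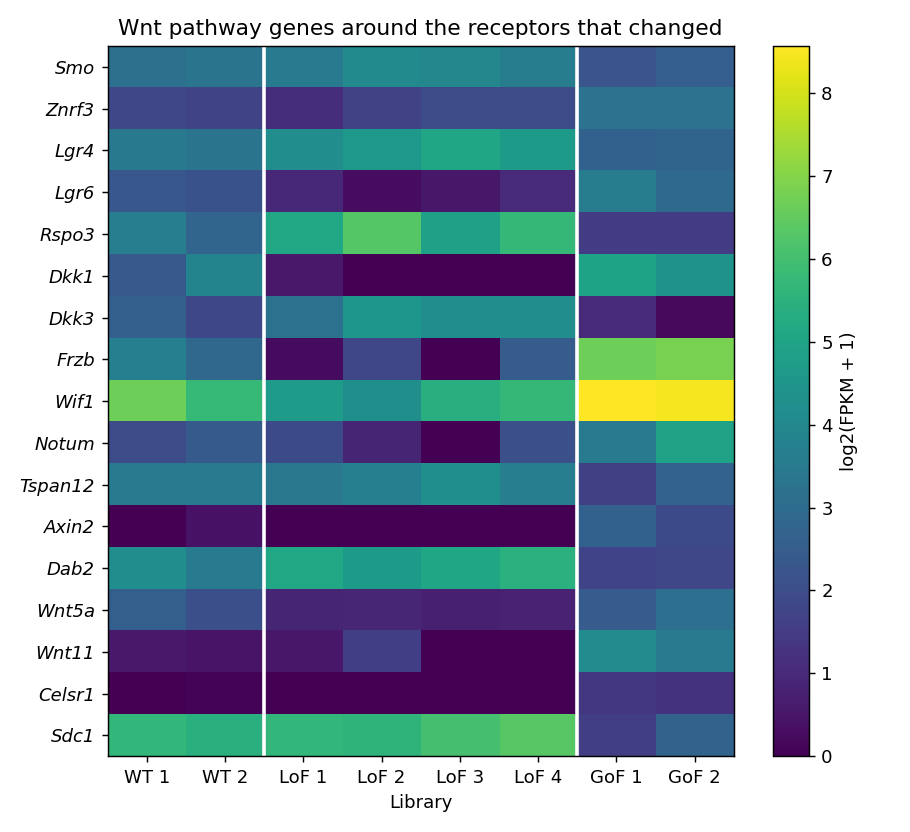
Level as log2(FPKM + 1) (colour scale) of the 17 pathway genes that passed in at least 1 comparison (rows) in each library (columns), with white lines between WT, LoF and GoF. Rspo3, Lgr4, Dkk3, Dab2, Sdc1, Smo and Tspan12 are lower in GoF than in LoF, and the other genes are higher in GoF than in LoF.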

How the data were processed

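RNA from pools of 70 tdTomato-positive cells per library was amplified with Smart-seq2, per the labels' protocols. The authors deposited FPKM per gene and library. The submitters' processing notes name the build mm10 and the tools HISAT2, SAMtools 0.1.18, Cufflinks and HTSeq, with no annotation release given in the sources used here. Because FPKM is a share of the library, a few very abundant genes push the receptors' values down. Of 48555 lines, 65 were identical repeats of a gene, which left 48490 genes.

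Groups came from the labels. The deposited values entered the fit as log2(FPKM + 1), with no further scaling. The 12888 genes reaching 1 FPKM in 2 or more of the 8 libraries were fitted for all 3 groups together with limma 3.58.1 in R 4.3.3 (mean-variance trend, median total degrees of freedom 10.1), called at a Benjamini-Hochberg adjusted p under 0.05. Fragments were read back from the steps between low FPKM values, calibrated on 440 single-exon genes, where 94.5% of 601 values fell within 0.1 of a whole number. The fragment length and step were chosen to make this share as high as possible, so it is no separate check. Genes were named by rule: all members, each called gene of a pathway list with up to 3 others of highest mean, and the 3 genes most correlated with a called member. Marker lists for pericytes, myeloid cells and red cells were also summed. Over 7 pericyte markers the sums were 22.6 to 35.1 FPKM in WT, 36.0 to 69.9 in LoF and 4.13 to 4.84 in GoF, over 8 osteoclast and myeloid markers 73.0 to 92.2, 72.1 to 99.2 and 102 to 111, over 6 red cell markers 2560 to 10600, 76.0 to 2270 and 895 to 1840, and over 7 hypertrophic markers 1840 to 2410, 3320 to 4990 and 728 to 812. The hypertrophic sum was mostly Mmp13 in WT and LoF (mean 1810 FPKM in WT, 4080 in LoF, 48.8 in GoF), whereas Col10a1, Panx3, Mef2c and Ihh had higher means in GoF than in LoF. The members and lists were chosen with earlier results of these data known. Mesd, a listed gene, was matched only under its symbol Mesdc2.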

Additional observations from a re-analysis of the deposited data

Results flagged for a closer look

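In 7 of 45 receptor and pathway genes checked, 1 of the 4 LoF libraries stood apart from the other 3. Chance flags about 1 in 20 groups of 4, a rate that does not hold where the other 3 are all at 0, as in 6 of the 7, since any fragment then sets a library apart. Fzd7 was at 4.17 FPKM in LoF 2 and at most 1.29 in the others. Fzd9 was at 1.08 FPKM in LoF 4 and listed at 0 in the others. In each of the other 5 genes, 1 LoF library was above 0 and the other 3 were listed at 0: Rspo2 at 1.94 FPKM in LoF 2, Lgr5 at 0.241 in LoF 1, Dkk1 at 0.500 in LoF 1, Apcdd1 at 0.217 in LoF 4 and Ndp at 0.657 in LoF 4.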

How the results depend on the processing

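Across 16 alternative settings (14 for Fzd9, which fell below the filter in the other 2), 16 of 18 member results stayed on the same side of the limma threshold in each one run; the exceptions were Fzd1 and Lrp5 in GoF against LoF. The direction changed in 3, none of them called: Fzd5 in LoF against WT, Fzd9 in GoF against WT and Lrp6 in GoF against LoF. The members called between GoF and LoF, 1 in the fit reported, were 2 with a pseudocount of 0.1 (Fzd1 and Lrp5), 0 with no filter on low values and 0 with a replicate block (Fzd1 -2.60, adjusted p = 0.0802), and 0 to 1 when each library was left out. The labels give no pairing. Same-numbered libraries did not deviate together (correlations -0.01 to 0.03), which shows no sign of pairing but, with so few libraries, cannot exclude it. The block also ended 10 of the 17 pathway calls between GoF and LoF and all 7 against WT. The fits without GoF 1 or 2, or WT 1 or 2, leave an arm of 1 library, assumed to vary like the rest.

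Over all genes, limma called 298 in GoF against WT, and 15 with the replicate block, 11 with sex as a covariate, 0 when only the groups compared were fitted (2334 at an unadjusted p under 0.05), and 48 to 337 without each library. It called 159 in LoF against WT, and 83 with a pseudocount of 0.1, 53 with no filter, 54 with no mean-variance trend, 1 with the replicate block, 14 with sex as a covariate, 0 with only the groups compared (1569 at an unadjusted p under 0.05), and 3 to 135 without each library. It called 1501 in GoF against LoF, 727 with the replicate block, 974 with sex as a covariate, and 414 to 1400 without each library. Fewer samples were fitted in the leave-one-out and group-only fits; for the other settings the cause was not tested. Depth limits the low members: no library held more than 22 fragments of Fzd5 or 6 of Fzd9.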
